A study of Mus musculus with 40 samples.

Results

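Aquaporins are membrane channels that let water cross the cell, and some of them, the aquaglyceroporins, also let glycerol pass. In the kidney they line most of the nephron: Aqp1 carries the bulk of water reabsorption in the proximal tubule and thin descending limb, and Aqp2 is the channel that vasopressin moves to the luminal membrane of collecting duct principal cells, with Aqp3 and Aqp4 as the exits on the blood side. Aqp7, an aquaglyceroporin, belongs to the straight part of the proximal tubule, the S3 segment, and to adipocytes, Aqp8 and Aqp11 have been described in proximal tubule cells, the latter inside the cell, and Aqp6 sits in vesicles of acid-secreting intercalated cells. In vessels, Aqp1 is known from endothelium. The 8 genes described here, Aqp1, Aqp2, Aqp3, Aqp4, Aqp6, Aqp7, Aqp8 and Aqp11, were taken by name from the count tables of mouse kidney and aorta, which list 55382 and 55335 genes. All 8 passed the filter on low counts in kidney, where 15943 genes were tested, and 4 of the 8 passed it in aorta, where 15122 genes were tested.

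RNA was sequenced from 20 kidneys and 20 aortas of mice with a deletion of the EGF receptor in endothelial cells (KO, EGFR flox/flox C57BL/6 crossed with Tek-cre, a Cre driven by the Tie2 promoter, which is also active in blood-forming cells) and of controls (WT) that carried the same Cre without LoxP sites. After 7 days on a mixture of the feeds from an average age of 5 weeks, the animals received standard fat diet (SFD, 10% of energy as fat) or high fat diet (HFD, 60%) during the next 18 weeks, beginning at 6 weeks of age. Each tissue had 5 libraries for WT SFD, WT HFD, KO SFD and KO HFD, and the sources used here do not tie a kidney to an aorta of the same mouse. The comparisons asked how HFD changed each aquaporin in each genotype, how the deletion changed it under each diet, and whether these effects interacted.

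The tissues carried their own markers: over the 20 kidneys the summed level of 7 proximal tubule genes was 7690 to 10000 FPM, and over the 20 aortas that of 7 smooth muscle genes was 25900 to 41400 FPM, of which 5 had counts. FPM is the CPM value, that is the count scaled to the TMM-normalised library size. Total counts ran from 19643033 to 48833447 in kidney and from 17520161 to 36452741 in aorta. All genes on chromosomes 9, X, Y and MT were at 0 in every library, so marker and pathway genes there add nothing and were not tested. Egfr checked no label in these bulk tissues: KO and WT differed by -0.01 in kidney and 0.14 in aorta (log2, edgeR adjusted p = 0.99 and 0.729). In each tissue 2 libraries of different groups differed by less than the sampling noise of separate libraries, a1 (KO HFD) with a12 (WT HFD) in kidney and R-1 (WT SFD) with R-12 (KO SFD) in aorta, at a median chi-square over genes of 0.028 and 0.0279 against 1.52 and 1.5 for the next closest pairs. Their labels were kept, and correlations use 19 distinct libraries of a tissue. Several results that rest on these libraries, but not all, are also given without them. For KO against WT each pair puts nearly the same library on both sides, under HFD in kidney and under SFD in aorta. This draws that difference toward 0. For HFD against SFD over both genotypes, both libraries of a pair stand on the same side, so nearly the same library is counted 2 times. The effects of HFD in WT and in KO also share it. Nothing in the labels says more of how the samples of a group were drawn. The p-values thus set a difference against the spread between these samples, the near-identical ones included.

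The genes lie on 5 chromosomes of the mouse genome (GRCm38, GENCODE M21). Aqp1 (ENSMUSG00000004655) is at chr6:55336432-55348555, plus strand. Aqp7 (ENSMUSG00000028427, chr4:41033074-41048139) and Aqp3 (ENSMUSG00000028435, chr4:41092722-41098183) are on the minus strand, 44582 bases apart with 1 gene between them. Aqp2 (ENSMUSG00000023013, chr15:99579055-99584547) and Aqp6 (ENSMUSG00000043144, chr15:99601400-99605477) are on the plus strand, 16852 bases apart with Aqp5 between them. Aqp11 (ENSMUSG00000042797, chr7:97724006-97738289, minus strand) and Aqp8 (ENSMUSG00000030762, chr7:123462291-123468004, plus strand) share a chromosome only. Aqp4 (ENSMUSG00000024411, minus strand) overlaps the antisense gene AC133525.2, and since the strand setting of the counting is not given in the sources used here, reads of these genes cannot be told apart.

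Windows upstream of 5 members are shown. Aqp1, Aqp7 and Aqp11 were lower under HFD in kidney. Aqp8 varied opposite to clock genes such as Dbp, and Aqp2 shares a motif with Aqp8. The windows are a description, and no test of expression rests on them. They are RefSeq sequences on GRCm38.p6, 5′ to 3′ on the strand of the gene, with matches to a searched motif in capitals. They cover chr6:55336049-55336298 for Aqp1 (plus strand), chr4:41048140-41048386 for Aqp7 (minus), chr7:97738290-97738497 for Aqp11 (minus), chr7:123462044-123462290 for Aqp8 (plus) and chr15:99578806-99579054 for Aqp2 (plus), and none overlaps another gene.
Aqp1 upstream window: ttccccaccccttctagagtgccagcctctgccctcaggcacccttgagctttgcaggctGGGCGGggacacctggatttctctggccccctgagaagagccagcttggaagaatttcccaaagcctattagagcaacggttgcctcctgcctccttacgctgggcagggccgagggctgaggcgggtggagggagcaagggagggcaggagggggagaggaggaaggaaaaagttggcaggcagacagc
Aqp7 upstream window: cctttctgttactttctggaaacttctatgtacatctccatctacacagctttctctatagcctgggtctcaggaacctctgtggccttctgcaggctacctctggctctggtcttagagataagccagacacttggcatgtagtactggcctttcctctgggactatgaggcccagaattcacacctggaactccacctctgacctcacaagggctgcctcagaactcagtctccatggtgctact
Aqp11 upstream window: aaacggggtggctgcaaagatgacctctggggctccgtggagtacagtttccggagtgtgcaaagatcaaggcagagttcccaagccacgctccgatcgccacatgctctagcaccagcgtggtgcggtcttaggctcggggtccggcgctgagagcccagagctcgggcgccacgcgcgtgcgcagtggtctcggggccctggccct
Aqp8 upstream window: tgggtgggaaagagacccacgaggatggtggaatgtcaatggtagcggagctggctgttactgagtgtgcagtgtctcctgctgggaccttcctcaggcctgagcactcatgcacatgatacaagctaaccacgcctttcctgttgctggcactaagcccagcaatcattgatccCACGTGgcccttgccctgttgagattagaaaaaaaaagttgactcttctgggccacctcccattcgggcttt
Aqp2 upstream window: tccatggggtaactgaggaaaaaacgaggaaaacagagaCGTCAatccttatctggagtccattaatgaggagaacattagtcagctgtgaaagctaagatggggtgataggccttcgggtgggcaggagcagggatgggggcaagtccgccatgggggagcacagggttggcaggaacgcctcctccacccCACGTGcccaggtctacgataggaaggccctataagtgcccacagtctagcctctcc
The windows end directly before the GENCODE start of the gene or, for Aqp1 and for Aqp6 (not printed), 134 and 201 bases before it, and 7 of the 8 members matched a RefSeq entry. The Aqp11 window has 208 bases, while the shares of all windows given below are over 250 bases. The windows of Aqp8, Aqp2 and Aqp6 each hold the E-box CACGTG, the letters that the clock proteins CLOCK and BMAL1 are known to bind, at -72 to -67, -57 to -52 and -229 to -224 from the GENCODE start of the gene. The E-box was found in 6.02% of 32851 upstream windows of all genes. The GC box GGGCGG, present in 32.7% of windows, was found upstream of Aqp1 and Aqp3, and TATAAA, present in 12.4%, at -29 to -24 of Aqp3. The cAMP response element TGACGTCA (1.55% of windows) was in no member window, while its shorter core TGACG, which the element contains (17.8%), was found on the opposite strand upstream of Aqp2. The PPAR element, a direct repeat of AGGTCA with 1 base between the copies (0.0335%), and the D-box TTATGTAA (0.819%) were in no member window, and the windows of Aqp7 and Aqp11 held none of the 7. All searches covered both strands. The letters are a description of these windows and show no binding.

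Per kilobase of annotated exons, Aqp1 was the most abundant member in both tissues. In kidney it had 309 ± 49.4 FPKM (FPM per kilobase of exons, SD, n = 20), followed by Aqp2 at 113 ± 28.4, Aqp3 at 49.2 ± 6.62, Aqp6 at 15.2 ± 3.01, Aqp7 at 10.2 ± 1.71, Aqp4 at 8.28 ± 1.93, Aqp11 at 6.26 ± 0.841 and Aqp8 at 1.13 ± 0.695 FPKM. The ranges of Aqp1 (226 to 397), Aqp2 (74.1 to 157) and Aqp3 (38.9 to 67.1) did not overlap, whereas those of Aqp6 (9.05 to 23.1), Aqp7 (7.42 to 13.2) and Aqp4 (6.17 to 13.8) did, as did those of Aqp4 and Aqp11 (4.71 to 8.14). The length is the union of all annotated exons, 9418 bases for Aqp11 and 6233 for Aqp4 against 1419 to 2828 for the others. Before this division Aqp11 had 58.9 FPM in kidney, above Aqp4 (51.6), Aqp6 (36.8) and Aqp7 (28.7), so its rank depends on that length. In aorta Aqp1 had 122 ± 13.4 FPKM (SD, n = 20), and Aqp2 (0.862 ± 0.357), Aqp7 (0.444 ± 0.341) and Aqp11 (0.228 ± 0.0622) were under 1 FPKM on average with overlapping ranges. The tables of the tissues were normalised separately, so no test was made between these levels.

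Of the 8 members, 4 were near or at 0 in aorta. Aqp4 and Aqp6 had 0 counts in all 20 aortas, Aqp3 had 14 counts in total with 12 libraries at 0, and Aqp8 had 2 counts, in 1 library. Aqp2 was still counted in every aorta, with 11 to 80 counts a library and 559 in all. Principal cell genes did not accompany it: the summed level of that list (3 of its 6 genes had any count) ran from 0 to 0.47 FPM in aorta against 90.3 to 131 FPM in kidney.

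HFD lowered the proximal tubule members Aqp1 and Aqp7 in kidneys of both genotypes, to between 0.71 and 0.815 of the level under SFD, and no aquaporin was called higher. At an adjusted p under 0.05, 2 of the 8 were called in WT, where 6.71% of all genes tested were called, and 2 of 8 in KO, where 6.34% were called. Taken over both genotypes, 3 of 8 were called against 16.4% of all genes. All of these were lower, a direction in which 3.68%, 3.18% and 8.7% of all genes were called, while 3.03%, 3.16% and 7.7% were called higher. The median log2 fold change of the 8 was -0.27 in WT and -0.31 in KO, beside -0.000266 and -0.000596 for all genes tested. The study also asked for more than 1.5-fold change and more than 5 FPM in a group. No member met these thresholds in any comparison of either tissue. For HFD in kidney 2.18% of genes met them in WT, 2.16% in KO and 2.92% over both genotypes, in aorta 0.00661%, 0% and 0.0265%, and for the deletion over both diets 0% in kidney and 0.0198% in aorta.

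Aqp1, the main water channel of the proximal tubule, had 999, 862, 906, 798 and 916 FPM in the 5 WT SFD kidneys and 733, 736, 634, 699 and 726 FPM in the 5 WT HFD kidneys. In KO it had 1010, 959, 862, 1040 and 849 FPM under SFD and 736, 687, 593, 723 and 746 FPM under HFD. In each genotype all 5 HFD kidneys lay below all 5 SFD kidneys, a lack of overlap that 6.64% of genes showed in WT and 7.81% in KO. The mean fell from 896.3 ± 74.1 to 705.7 ± 42.47 FPM in WT (SD, n = 5), a log2 fold change of -0.34 (standard error 0.08, 95% interval -0.51 to -0.18, edgeR adjusted p = 0.0116), or 0.787-fold. In KO it fell from 944.9 ± 87.05 to 697.0 ± 62.4 FPM, a log2 fold change of -0.44 (standard error 0.08, 95% interval -0.61 to -0.27, edgeR adjusted p = 0.00166), or 0.738-fold. Without kidneys a1 and a12 the log2 fold changes were -0.36 and -0.46, both still called. The WT call was lost without kidney a13 (log2 fold change -0.31, adjusted p = 0.0509).

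Aqp7, which passes glycerol as well as water, had 37.4, 26.5, 31.2, 29.1 and 30.2 FPM in the 5 WT SFD kidneys and 25.7, 24.2, 24, 25.7 and 26.2 FPM in the 5 WT HFD kidneys. In KO the values were 35.7, 36.6, 34.4, 34.4 and 30.8 FPM under SFD and 24.4, 24.4, 26.3, 21 and 25.9 FPM under HFD. The diets did not overlap in either genotype, although in WT the lowest SFD kidney stood just above the highest HFD kidney. The mean fell from 30.86 ± 4.077 to 25.17 ± 0.9929 FPM in WT (SD, n = 5), a log2 fold change of -0.30 (standard error 0.08, 95% interval -0.47 to -0.12, edgeR adjusted p = 0.0356). In KO it fell from 34.39 ± 2.201 to 24.4 ± 2.098 FPM, a log2 fold change of -0.50 (standard error 0.08, 95% interval -0.67 to -0.32, edgeR adjusted p = 0.000786), which is 0.71-fold. The WT call was lost without a1 and a12 (log2 fold change -0.28, adjusted p = 0.0777), and it was also lost when any of 8 single libraries was left out, namely a11 to a16, a18 or a20, with adjusted p-values of 0.0554 to 0.121. The KO call was kept in each of these fits.

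**Figure D1:**
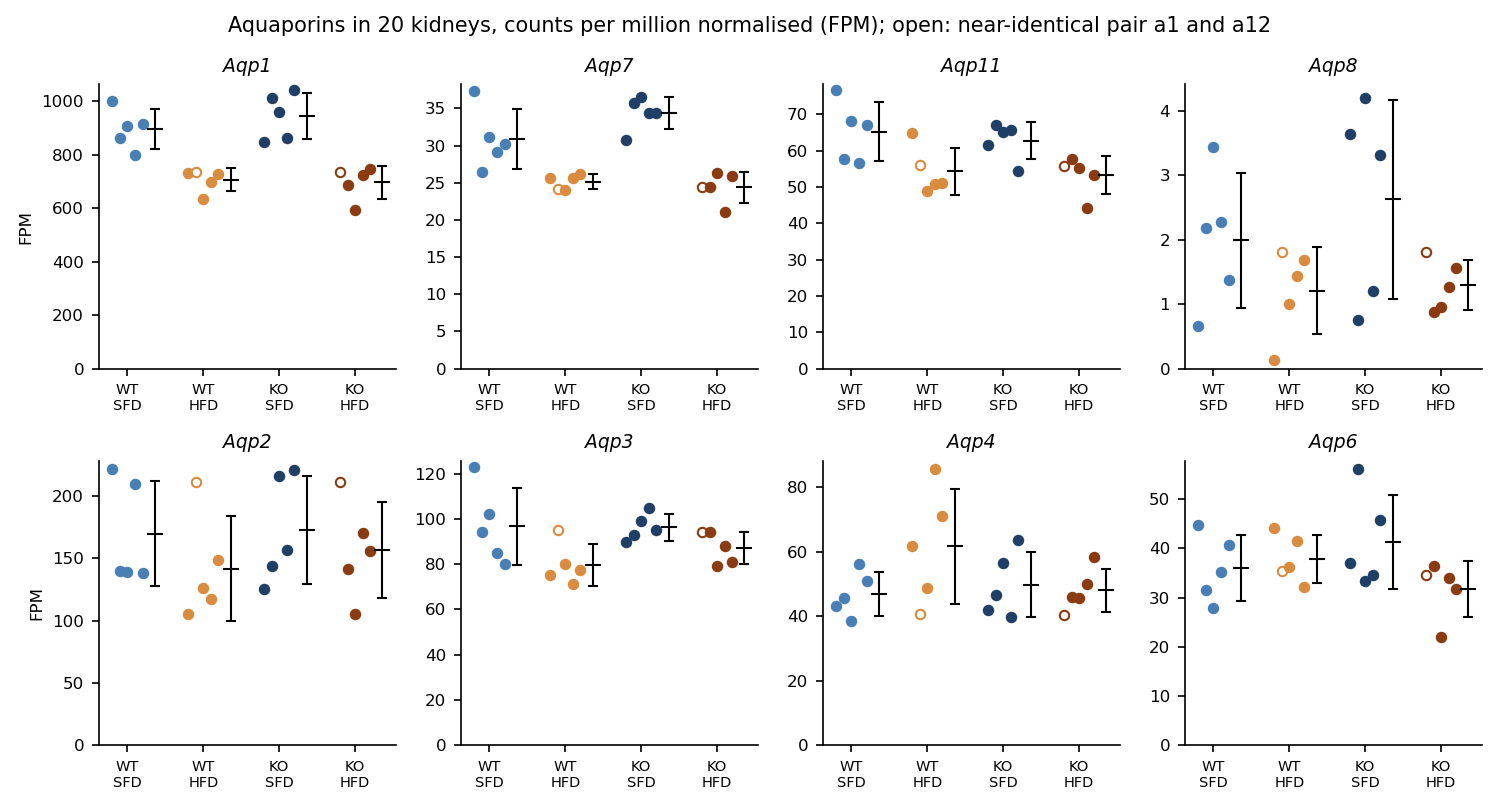
Level of each of the 8 aquaporins in every kidney, as FPM (CPM on the normalised library size, vertical axes from 0), in 5 libraries of each of 4 groups. Points are libraries, offset sideways for visibility, open points mark the near-identical libraries a1 and a12, and bars give the mean and SD of a group. For Aqp1, the 10 SFD kidneys lie between 798 and 1040 FPM and the 10 HFD kidneys between 593 and 746 FPM.

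Aqp11, an aquaporin of intracellular membranes, had 76.6, 57.8, 68.1, 56.6 and 67.1 FPM in WT SFD and 64.9, 56, 48.9, 50.7 and 51 FPM in WT HFD. It had 67, 65, 65.7, 54.5 and 61.6 FPM in KO SFD and 55.7, 57.8, 55.3, 44.3 and 53.3 FPM in KO HFD. The diets overlapped in both genotypes, by 1 or more kidneys on each side. Neither genotype alone was called, at log2 fold changes of -0.27 in WT and -0.24 in KO (edgeR adjusted p = 0.117 and 0.172), but over both genotypes it fell by 0.25 on the log2 scale (standard error 0.07, adjusted p = 0.0149). The call over both genotypes was kept when any single kidney was left out, a1 or a12 among them (edgeR adjusted p of 0.005 to 0.0374). Aqp1 and Aqp7 over both genotypes had log2 fold changes of -0.39 and -0.40 (standard error 0.06 each, adjusted p = 5.98e-05 and 7.23e-05). Their 10 SFD and 10 HFD kidneys, the latter with the near-identical a1 and a12, did not overlap, as for 2.84% of all genes. These averaged comparisons use the same kidneys as those within a genotype and are no further evidence.

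Aqp8, the least abundant member in kidney, varied more between kidneys of a group than between the groups. It had 0.666, 2.19, 3.45, 2.28 and 1.37 FPM in WT SFD and 0.126, 1.81, 1, 1.44 and 1.68 FPM in WT HFD, and 0.76, 4.21, 1.21, 3.32 and 3.64 FPM in KO SFD against 1.81, 0.879, 0.963, 1.27 and 1.57 FPM in KO HFD. Each group but KO HFD held kidneys that were several-fold apart, on 3 to 102 counts a library. HFD over SFD was 0.6203-fold in WT (95% interval 0.2938 to 1.31) and 0.4985-fold in KO (95% interval 0.2361 to 1.053) (adjusted p = 0.501 and 0.295), and over both genotypes 0.5561-fold (95% interval 0.3278 to 0.9433, adjusted p = 0.121). None of these passed the adjustment.

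The collecting duct members gave no call for HFD. Aqp2, the vasopressin-regulated channel, had 222, 140, 139, 210 and 138 FPM in WT SFD, 105, 211, 126, 117 and 149 in WT HFD, 144, 216, 157, 221 and 125 in KO SFD and 211, 141, 105, 170 and 156 FPM in KO HFD. Kidneys near 210 FPM occurred in all 4 groups, and those of the HFD groups were the near-identical a1 and a12. The log2 fold change for HFD was -0.26 in WT and -0.14 in KO, with 95% intervals of -0.72 to 0.20 and -0.60 to 0.32 (edgeR adjusted p = 0.558 and 0.778). Without a1 and a12 Aqp2 had log2 fold changes of -0.45 in WT, -0.27 in KO and -0.36 over both genotypes (adjusted p = 0.193, 0.532 and 0.0925), none of them called.

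Aqp3, the glycerol-permeable exit of principal cells, had 123, 94.1, 102, 84.9 and 79.9 FPM in WT SFD and 75, 95.1, 80.1, 71.1 and 77.3 in WT HFD, and 92.7, 98.9, 105, 95.2 and 89.8 FPM in KO SFD against 94.3, 94.1, 79.3, 88 and 81 in KO HFD. The highest WT HFD kidney was a12, and the diets overlapped in both genotypes. Its log2 fold changes were -0.28 in WT (standard error 0.10, adjusted p = 0.117), -0.14 in KO (adjusted p = 0.479) and -0.21 over both genotypes (adjusted p = 0.0504). Without a1 and a12 it was called in WT (log2 fold change -0.35, adjusted p = 0.0414) and over both genotypes (-0.26, adjusted p = 0.0173). Over both genotypes it was also called without a12 alone (adjusted p = 0.0182), without a2, a19 or a20 alone, by the DESeq2 Wald test (adjusted p = 0.0414), and with the clock score (adjusted p = 0.0366) or the thin limb and medulla score (adjusted p = 0.0348) as a covariate.

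Aqp4, the other basolateral channel, had 43.3, 45.6, 38.5, 56.1 and 51 FPM in WT SFD, 61.9, 40.6, 48.8, 85.8 and 71.2 in WT HFD, 46.6, 56.6, 39.8, 63.5 and 42 in KO SFD and 40.4, 45.9, 45.7, 50 and 58.3 FPM in KO HFD. Its highest values were in WT HFD kidneys, with overlap. The log2 fold change for HFD was 0.39 in WT (standard error 0.17, adjusted p = 0.209) and -0.05 in KO (adjusted p = 0.912). Aqp6 of the intercalated cells had group means between 31.77 ± 5.742 FPM in KO HFD and 41.42 ± 9.545 FPM in KO SFD (SD, n = 5), with log2 fold changes of 0.07 in WT (adjusted p = 0.85) and -0.38 in KO (adjusted p = 0.18).

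**Figure D2:**
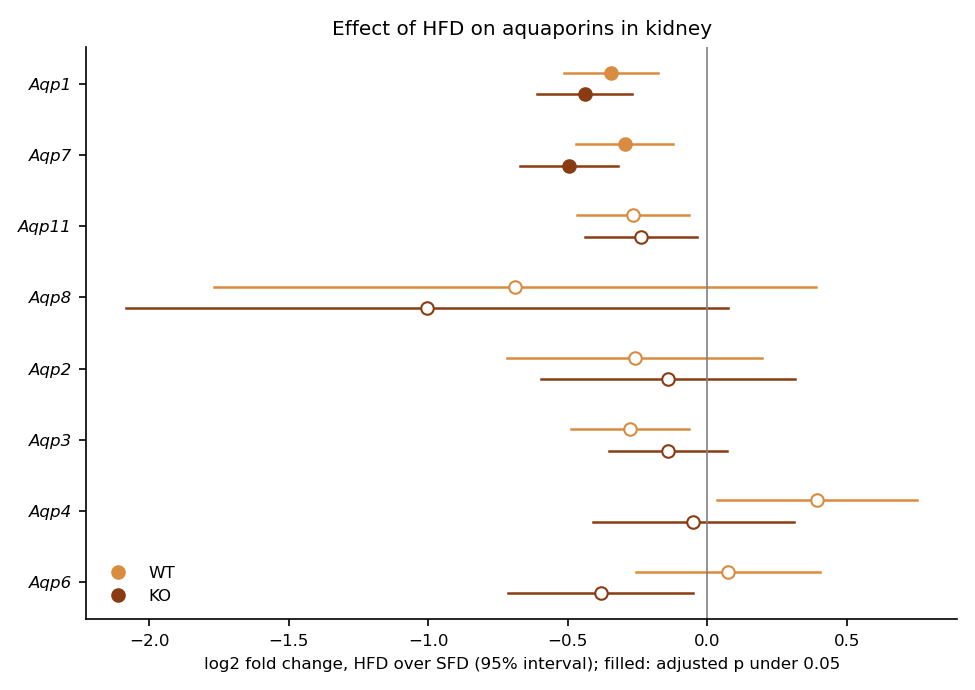
Log2 fold change of HFD over SFD for each aquaporin in WT and KO kidneys (horizontal axis), with 95% intervals as lines and filled points where the adjusted p was under 0.05. The only filled points are those of Aqp1 and Aqp7, between -0.30 and -0.50, and the interval of Aqp8 is the widest.

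The deletion of endothelial EGFR left no called change in a renal aquaporin. Against WT, 0 of 8 members were called under SFD, under HFD or over both diets, and 0 of 8 differed in their response to HFD between genotypes, in edgeR tests that called 0% of all 15943 genes in each of these comparisons. Without adjustment, 2.67% of genes under SFD, 3.42% under HFD, 4.82% over both diets and 1.79% for the interaction had a p under 0.05, and 0 members did. The DESeq2 Wald test, limma voom and edgeR's likelihood ratio test also called 0 members. For Aqp1 the difference of KO from WT was 0.08 under SFD (log2, 95% interval -0.09 to 0.25) and -0.02 under HFD (95% interval -0.19 to 0.15). For Aqp7 it was 0.16 (95% interval -0.02 to 0.33) and -0.04 (95% interval -0.22 to 0.13). The HFD effect in KO minus that in WT was -0.09 for Aqp1 (95% interval -0.33 to 0.15) and -0.20 for Aqp7 (95% interval -0.45 to 0.05), so their fall was not shown to differ between genotypes. The lowest interaction p was that of Aqp6, -0.45 on the log2 scale (standard error 0.22, edgeR adjusted p = 1). The alternatives include fits without a1 and a12. Over them the KO difference under HFD ran from -0.04 to 0.04 for Aqp1 and from -0.07 to 0.01 for Aqp7. For Aqp2 it ran from 0.01 to 0.33 (0.14 in the main fit) and for Aqp4 from -0.48 to -0.20 (-0.36 in the main fit), with 0 calls.

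Genes that define the S3 segment fell together with Aqp1 and Aqp7. All 5 markers of that list were called lower under HFD in WT, in KO and over both genotypes. Of all genes tested, 3.68%, 3.18% and 8.7% were called lower there. Among the 5 were Slc22a7, an organic anion transporter, at -1.68 on the log2 scale over both genotypes, and Slc7a13, an amino acid transporter, at -0.69 (edgeR adjusted p = 0.000365 and 3.37e-05). The summed level of the 5 was 3851 to 4487 FPM in WT SFD, 2116 to 2840 in WT HFD, 3534 to 4305 in KO SFD and 2113 to 2599 FPM in KO HFD, with no overlap between diets and no marker at 0. Over 19 kidneys the correlation with the S3 score was 0.842 for Aqp1, 0.81 for Aqp7 and 0.595 for Aqp11, and without the 2 kidneys farthest from the median score 0.874, 0.768 and 0.623. Within a diet it was 0.315 (SFD, n = 10) and 0.0274 (HFD, n = 9) for Aqp1 and -0.0431 and 0.478 for Aqp7. Aqp8, which was not called, had 0.603 with the S3 score, 0.665 within SFD and 0.46 within HFD. With the S3 score as a covariate, 0 of 8 aquaporins were called for HFD, and the log2 fold changes over both genotypes were -0.28 for Aqp1 (adjusted p = 0.557) and -0.30 for Aqp7 (adjusted p = 0.558). Without the covariate they were -0.39 and -0.40. The score did not overlap between the diets, so that fit cannot tell the S3 score from the diet for any gene. The share of all genes called in it is not given here. In these bulk samples, fewer S3 cells and less RNA per S3 cell cannot be told apart, and the part of the S3 genes in the result was not tested.

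**Figure D3:**
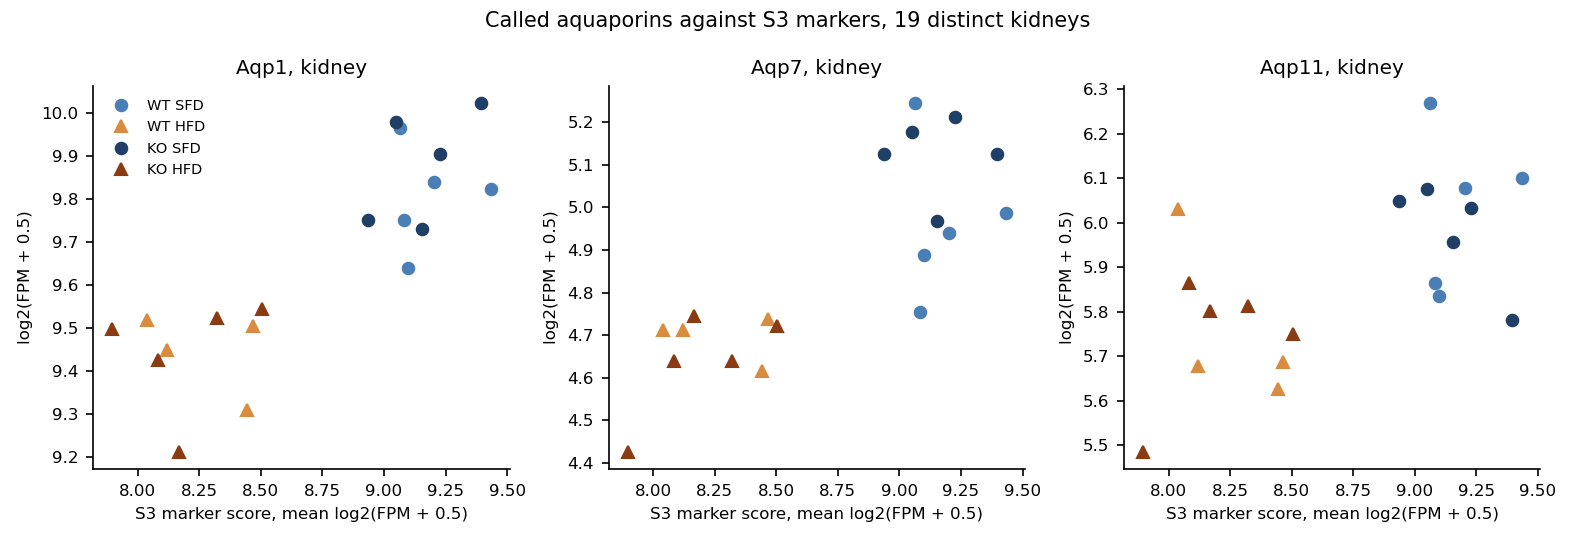
Level of Aqp1, Aqp7 and Aqp11 (vertical axes) against the score of the 5 S3 markers (horizontal axes), both as log2(FPM + 0.5), the score being their mean, in 19 distinct kidneys. Circles are SFD and triangles HFD libraries, and the diets stand apart along the S3 axis, with correlations of 0.842, 0.81 and 0.595 over all kidneys, and of -0.213 to 0.315 within a diet for Aqp1 and Aqp11.

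General proximal tubule genes did not move in 1 direction, with 2 of 7 called higher and 1 lower over both genotypes. In that comparison 7.7% of all genes tested were called higher and 8.7% lower. Over 19 distinct kidneys the correlation with the score of the 7 genes was negative, -0.587 for Aqp1 and -0.341 for Aqp7. Of 4 distal convoluted tubule genes, 2 rose, Slc12a3, the thiazide-sensitive sodium chloride transporter, by 0.43 and Pvalb, a calcium-binding protein, by 1.45 on the log2 scale, on summed levels of 1104 to 1582 FPM in WT SFD and 1186 to 2170 FPM in WT HFD, and 1001 to 1353 and 1189 to 2068 FPM in KO. The correlation with the score of these 4 genes was -0.873 for Aqp1 (-0.293 within SFD, -0.671 within HFD) and -0.776 for Aqp7 (-0.296 and -0.0732), over the same 19 kidneys. Of 4 principal cell genes tested from a list of 6, Fxyd4, a subunit that modulates the sodium pump, fell by 0.51 (adjusted p = 0.00402). The summed level of the list, without counts for Tmem45b on chromosome 9 and Hsd11b2 on the distal part of chromosome 8, where 657 genes were all at 0 in both tables, was 102.8 to 120.5 FPM in WT SFD, 90.26 to 104.8 in WT HFD, 102.9 to 131.3 in KO SFD and 95.43 to 111.1 FPM in KO HFD. With the principal cell score as a covariate the WT calls of Aqp1 (adjusted p = 0.094) and Aqp7 (0.198) were lost, while both were kept in KO. The correlation with this score was 0.653 for Aqp3, 0.348 for Aqp2 and 0.545 for Aqp1 over 19 kidneys. The part of these cells in the result was not tested. Of 11 immediate-early genes, 9 were called lower under HFD over both genotypes, as were 8.7% of all genes, with the SFD kidneys a8, a9 and a17 far above the rest. Their summed level reached 2434 FPM in WT SFD and 2583 FPM in KO SFD against at most 192.3 FPM under HFD, while the group medians were higher under HFD, at 132.6 against 114.1 FPM in WT and 129 against 119.7 FPM in KO. Without these 3 kidneys the log2 fold changes over both genotypes were -0.39 for Aqp1 and -0.42 for Aqp7 (adjusted p = 0.000635 and 0.000258).

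In kidney, genes of the pathways around the water channels were called in both directions. Genes of these lists on chromosomes 9 and X, at 0 in every library, are not among those tested. Over both genotypes 16.4% of all genes were called. Of 31 tested genes of vasopressin signalling to Aqp2, 3 rose and 4 fell, beside 7.7% of all genes called higher and 8.7% called lower. Akap7, an anchor of protein kinase A, rose by 0.43 on the log2 scale (adjusted p = 0.000357) and Tfcp2l1, a collecting duct transcription factor, by 0.26 (adjusted p = 0.0434), whereas Gnas, the stimulatory G protein, fell by 0.45 (adjusted p = 0.0396) and Nedd4l, a ubiquitin ligase, by 0.23 (adjusted p = 0.0164). The list's median was -0.02. Of 15 tested genes of urine concentration, 0 rose and 3 fell, with a median of -0.29: Slc12a1, the transporter of the thick ascending limb, fell by 0.41 (adjusted p = 0.0133), Akr1b3, the aldose reductase that makes sorbitol, by 0.76 (adjusted p = 0.00466) and the heat shock gene Hspa1a by 0.59 (adjusted p = 0.0352).

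Glycerol is the second cargo of Aqp7 and Aqp3. Of 12 tested genes of glycerol handling and lipolysis, 1 rose and 3 fell over both genotypes, where 7.7% of all genes were called higher and 8.7% lower, with a median log2 fold change of 0.03. Pck1, an enzyme of gluconeogenesis, rose by 0.54 (adjusted p = 0.00393). Lpl, lipoprotein lipase, fell by 1.67 (adjusted p = 1.49e-07), Cd36, a fatty acid transporter, by 0.72 (adjusted p = 4.51e-09) and Pnpla2, the triglyceride lipase, by 0.39 (adjusted p = 0.00422). No gene of the 3 lists was called for the deletion in kidney.

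Across the 19 distinct kidneys, Aqp1 and Aqp7 resembled each other more than any other pair of members, with a correlation of 0.838 (log2 scale, FPM + 0.5). Aqp7 and Aqp11 followed at 0.775, Aqp1 and Aqp11 at 0.651, and Aqp3 and Aqp4 ran opposite at -0.653. Aqp2 and Aqp6, neighbours on chromosome 15, had 0.204. Kidneys of all groups enter these values, so the diet is shared by the genes compared.

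The genes most like each member, among 10414 with a mean of at least 5 FPM, were other than aquaporins by rule. They were Itih2 (0.94), Bdh1 (0.924) and Gstm1 (0.923) for Aqp1, Aldh9a1 (0.901), Tpmt (0.889) and Ghr (0.887) for Aqp7, and Susd3 (0.911), Osbpl9 (0.895) and Tpmt (0.895) for Aqp11. For Aqp8 they were Ethe1 (0.914), Misp3 (0.9) and Pnrc2 (0.883), for Aqp3 Echs1 (0.907), Bccip (0.901) and Tsg101 (0.894), and for Aqp6 Rap1gap (0.824), Rab40c (0.824) and Ppp1r1b (0.768). For Aqp2 and Aqp4 the closest, Kansl2 and Ncbp3, reached 0.813 and 0.79. Tpmt, an enzyme that methylates thiopurines, stood on the lists of both Aqp7 and Aqp11.

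Aqp8, Aqp11 and Aqp6 varied with the clock genes, Aqp8 in the opposite direction to Aqp11 and Aqp6. Other lists had correlations of similar size over 19 kidneys, such as S3 genes with Aqp8 (0.603), lymphoid genes with Aqp11 (-0.6) and thick ascending limb genes with Aqp6 (0.59). Against the mean of 9 genes of 1 phase, such as Dbp, Per2 and Nr1d1, the correlation over 19 kidneys was -0.606 for Aqp8, 0.604 for Aqp11 and 0.533 for Aqp6, and without the 2 kidneys farthest from the median score -0.596, 0.461 and 0.582. Within SFD (n = 10) it was -0.839, 0.588 and 0.409, and within HFD (n = 9) -0.731, 0.791 and 0.707. Against 3 genes of the opposite phase, among them Arntl, it was 0.651 for Aqp8, -0.499 for Aqp11 and -0.473 for Aqp6. Of the 3 members with the E-box upstream, Aqp8 thus had a negative, Aqp6 a positive and Aqp2 hardly any correlation (-0.0969) with the 9 genes. The summed level of the 9 genes was 497.5 to 1272 FPM in WT SFD, 642.8 to 1122 in WT HFD, 548.9 to 1154 in KO SFD and 515.3 to 847.3 FPM in KO HFD. The ranges of all groups thus overlapped, and that of KO HFD was the narrowest. With the clock score as a covariate Aqp11 was also called in WT (log2 fold change -0.27, adjusted p = 0.0316). It was called too with the score of 6 thin limb and medulla genes as a covariate, in WT (adjusted p = 0.0402) and in KO (adjusted p = 0.032), and in WT without kidney a11 (adjusted p = 0.046). The time of tissue collection is not given in the sources used here, and its part in these values was not tested.

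**Figure D4:**
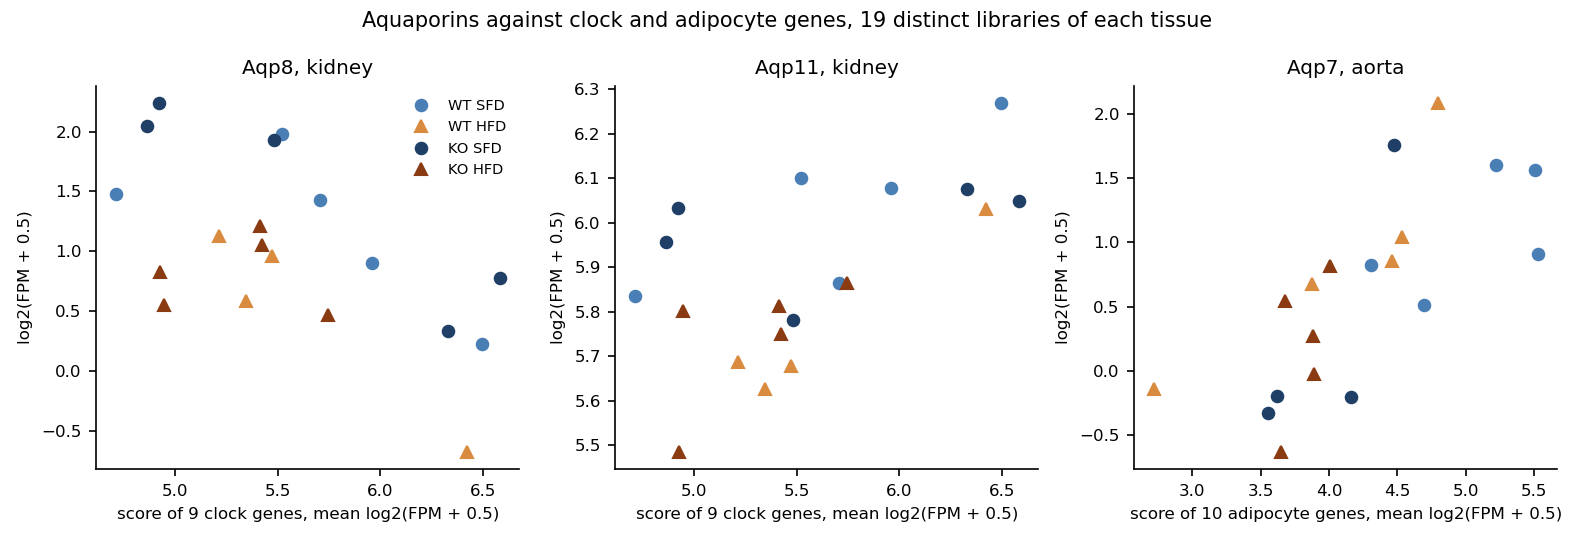
Level of Aqp8 and Aqp11 in 19 distinct kidneys against the score of 9 clock genes, and of Aqp7 in 19 distinct aortas against the score of 10 adipocyte genes, all as log2(FPM + 0.5), a score being the mean of its genes. Circles are SFD and triangles HFD libraries. Aqp8 declines (-0.606) and Aqp11 climbs (0.604) along the clock score, and Aqp7 climbs along the adipocyte score (0.728).

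In aorta no aquaporin was called in any comparison. HFD gave 0 of 4 calls in WT, in KO and over both genotypes, where 0.0132%, 0% and 0.0529% of all genes were called. The deletion gave 0 of 4 under SFD, under HFD and over both diets, where 0%, 0% and 0.0198% of all genes were called, and the interaction 0 of 4 against 0%. Without adjustment, 2 of 4 members had a p under 0.05 for the deletion over both diets, as had 8.78% of all genes, and 0 of 4 in the other comparisons. The share of all genes there was 2.61%, 4.56% and 6.7% for HFD in WT, in KO and over both, 2.28% and 5.85% for the deletion under SFD and HFD, and 0.84% for the interaction. The DESeq2 Wald test, limma voom and edgeR's likelihood ratio test also called 0 members.

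Aqp1 had 345, 347, 336, 347 and 348 FPM in the 5 WT SFD aortas, 378, 332, 345, 273 and 369 in WT HFD, 290, 345, 297, 302 and 281 in KO SFD and 288, 333, 280, 253 and 348 FPM in KO HFD. The KO SFD value of 345 FPM is that of R-12, the near-identical partner of R-1, and with it the KO SFD and WT SFD aortas overlapped. Under SFD alone KO differed from WT by -0.19 on the log2 scale (95% interval -0.40 to 0.03), which was not called. The log2 fold change for HFD over both genotypes was -0.02 (95% interval -0.17 to 0.13). For KO against WT over both diets the log2 fold change was -0.18 (standard error 0.07, 95% interval -0.33 to -0.03, edgeR adjusted p = 0.498), and without R-1 and R-12 it was -0.21 (adjusted p = 0.325). Neither value passed the adjustment.

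Aqp7 had 0.928, 2.46, 2.54, 1.38 and 1.27 FPM in WT SFD aortas, 1.31, 1.1, 3.73, 1.56 and 0.41 in WT HFD, 0.372, 0.928, 0.3, 2.88 and 0.376 in KO SFD and 1.26, 0.487, 0.708, 0.96 and 0.148 FPM in KO HFD. Most KO aortas were below 1 FPM and most WT aortas above, with a high KO SFD library (R-14) and a low WT HFD library (R-10). The values of 0.928 FPM in WT SFD and in KO SFD are those of the near-identical R-1 and R-12. Over both diets the KO level was 0.4995-fold that of WT (95% interval 0.26 to 0.9596, standard error 0.45 on the log2 scale, edgeR adjusted p = 0.548). Aqp2 and Aqp11 gave -0.36 and 0.09 (adjusted p = 0.728 and 0.922), on 11 to 80 and 23 to 79 counts a library.

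**Figure D5:**
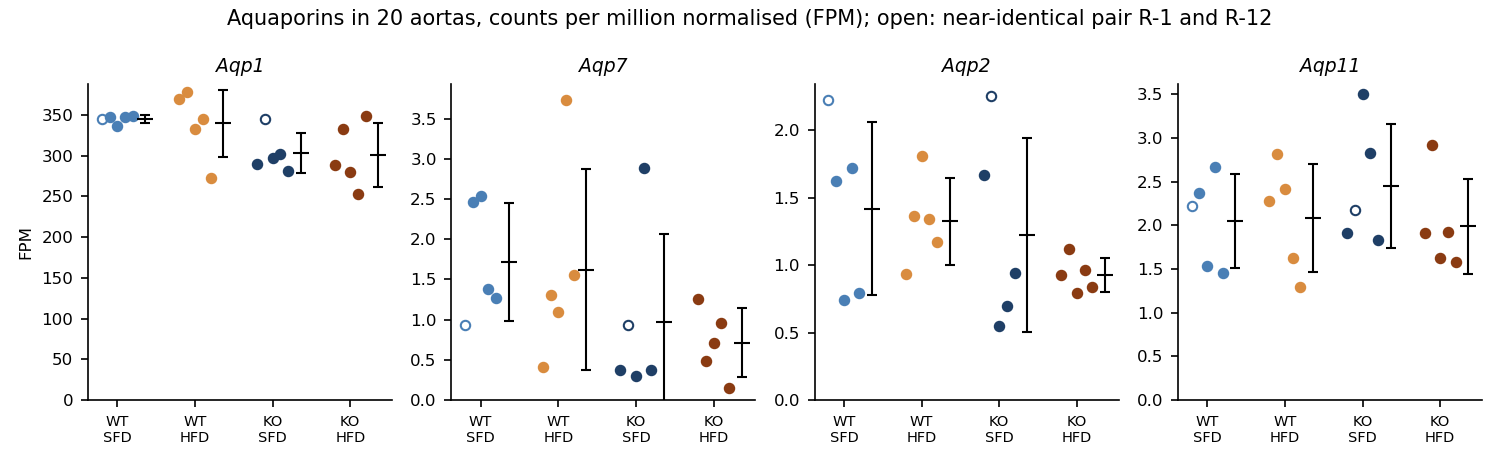
Level of the 4 aquaporins tested in aorta, as FPM (vertical axes from 0), in 5 libraries of each of 4 groups. Points are libraries, offset sideways, open points mark the near-identical R-1 and R-12, and bars give the mean and SD, with the lower arm for Aqp7 in KO SFD running below the axis. The 5 WT SFD aortas lie between 336 and 348 FPM for Aqp1, and the open KO SFD point at 345 FPM is R-12.

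Aqp7 is known as the glycerol exit of adipocytes, and adipocyte genes moved with it in aorta. The correlation with the score of 10 adipocyte genes was 0.728 over 19 aortas (0.785 without the 2 farthest), 0.756 within SFD (n = 9) and 0.77 within HFD (n = 10), and the most like genes were Pck1 (0.838), Acadm (0.832) and Fabp4 (0.824), the last an adipocyte marker, among 10513 genes. The summed adipocyte level was 806.7 to 1184 FPM in WT SFD, 750.5 to 1008 in WT HFD, 622.5 to 830.2 in KO SFD and 650.4 to 828.5 FPM in KO HFD, with all 10 genes counted. Plin4 carried much of this sum and hardly differed under SFD, with means of 446.8 FPM in WT and 446.7 FPM in KO. For the deletion over both diets 0 of the 10 genes were called, 7 had an unadjusted p under 0.05, beside 8.78% of all genes, and the median log2 fold change of the 10 was -0.93. With the adipocyte score as a covariate the difference of Aqp7 was -0.14 (adjusted p = 0.946). The aortas had been freed of fat and connective tissue before freezing, and the part of remaining adipocytes was not tested.

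Immediate-early genes, which rise within minutes of stress to a tissue, moved opposite to Aqp1 in aorta, with a correlation of -0.677 over 19 aortas, -0.592 within SFD and -0.735 within HFD. Their summed level was 513.4 to 2735 FPM in WT SFD, 1062 to 3933 in WT HFD, 1512 to 3289 in KO SFD and 1330 to 16580 FPM in KO HFD, with all 11 genes counted. For the deletion 0 of 11 were called and 11 of 11 had an unadjusted p under 0.05 (8.78% of all genes), at a median of 1.11. With their score as a covariate the log2 difference of Aqp1 was -0.08 (adjusted p = 1). Endothelial genes, the site of the deletion and a known site of Aqp1, had a correlation of -0.393 with Aqp1, with summed levels of 350.7 to 1465 FPM in WT SFD, 412 to 1664 in WT HFD, 774 to 1943 in KO SFD and 649 to 1745 FPM in KO HFD. Smooth muscle genes had a correlation of 0.465 with Aqp1 over the same aortas. The part of all these genes in the values of Aqp1 was not tested.

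The genes most like the other members in aorta were, for Aqp1, Rab11b.ps2 (0.812), X1600014C10Rik (0.797) and Kcnmb1 (0.773), the last a potassium channel subunit of smooth muscle. For Aqp2 they were Gm14150 (0.845), Nmi (0.842) and Lsm1 (0.827), and for Aqp11 Ap3m2 (0.716), Tgif1 (0.696) and Brat1 (0.685). Of the pathway lists, 27 genes of vasopressin signalling, 10 of urine concentration and 12 of glycerol handling were tested in aorta, and 0 were called for HFD or for the deletion over both diets. For the deletion the median log2 fold change of the 12 glycerol genes was -0.55, with 7 at an unadjusted p under 0.05, as 8.78% of all genes, and 0 higher in KO. Of these genes Pnpla2, Lipe, Plin1, Cidec and Fabp4 also belong to the adipocyte list above, so the values of the lists are not separate.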

How the data were processed

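Messenger RNA was enriched with oligo(dT) and sequenced by the authors as paired reads of 150 bp from 20 kidneys and 20 aortas. They deposited whole-number counts per gene, without normalisation or a filter on low counts, in 1 table for each tissue. The build is mm10 (GRCm38) and the counting was done with featureCounts. The submitters' processing notes name HISAT2 (2.1.0), while the methods of the study name TopHat2. The labels gave each sample its tissue, genotype and diet. Each table was normalised by TMM and, after filterByExpr, fitted as a whole with the robust quasi-likelihood model of edgeR 4.0.16 (R 4.3.3). The p-values of all genes tested were adjusted by Benjamini-Hochberg. A gene was called at an adjusted p under 0.05. The contrasts were HFD against SFD and KO against WT, within each level of the other factor and averaged over it, and their interaction. FPKM divided FPM by the exon length of GENCODE M21. Scores are means of log2(FPM + 0.5), and correlations are Pearson's, given as descriptions.

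All 8 members were named by rule, with values by library where the tissue mean reached 1 FPM, together with the 3 most like genes (mean of at least 5 FPM) and up to 4 called genes from a list. The members and lists were chosen with earlier results of these data known. Alternatives were DESeq2 1.42.0, limma 3.58.1 voom, other size factors and filters, covariates and left-out libraries. The S3, proximal tubule and immediate-early covariates were added after seeing the data. The scripts were tested on simulated data. Total counts set the precision, with a biological coefficient of variation of 22.3% in kidney and 29% in aorta.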

Additional observations from a re-analysis of the deposited data

Results flagged for a closer look

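In 48 groups of 5 libraries, 12 members and tissues in 4 groups each, 3 held a library far from the other 4 by Dixon's criterion (critical value 0.71), where chance gives about 1 in 20. All were in aorta. For Aqp1 in WT SFD, R-3 had 336 FPM beside 345 to 348 FPM in the others. For Aqp7 in KO SFD, R-14 had 2.88 FPM beside 0.3 to 0.928 FPM. For Aqp11 in KO HFD, R-17 had 2.92 FPM beside 1.58 to 1.92 FPM.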

How the results depend on the processing

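The calls for HFD in kidney, 2 in WT, 2 in KO and 3 over both genotypes, depended most on the S3 score as a covariate, added after seeing the data, which left 0 in each. In WT the count was 1 with no filter on low counts, 0 when only the 2 groups compared were fitted and 0 with the principal cell score as a covariate. Leaving out single kidneys gave 0 to 2 calls in WT, 2 in KO and 3 to 4 over both genotypes. The S3 covariate also turned the sign of Aqp8 over both genotypes, to a log2 fold change of 1.54 (adjusted p = 0.588), and the cause was not tested. This score differed between the diets without overlap, so that covariate and diet are largely the same contrast. Over both genotypes the call of Aqp11 was lost with the principal cell score as a covariate (adjusted p = 0.148).

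Counts of called members were 0 in every alternative for the deletion and the interaction in kidney and for all comparisons in aorta. Of 84 effects of members, 68 had an unadjusted p over 0.05. Of these, 33 changed sign under at least 1 alternative and 0 were ever called. No member passed the thresholds of the study in any of 37 settings in kidney or 35 in aorta. No paired analysis was possible because the replicate names of the compared groups do not match. Low counts limit the precision for Aqp8 in kidney and for Aqp2, Aqp7 and Aqp11 in aorta.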

Other observations

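Of the 4 mouse aquaporins outside the 8 members, Aqp9 (on chromosome 9) and Aqp12 had 0 counts in both tables. Mip, the lens aquaporin, had 30 counts over the 20 kidneys and 36 over the 20 aortas. Aqp5, which lies between Aqp2 and Aqp6 and is known from salivary and lacrimal glands, had 93 counts over the kidneys (mean 0.186 FPM, not tested) and 178 over the aortas (mean 0.413 FPM), with 2 to 20 counts an aorta. In aorta Aqp5 was tested and called in no comparison. Its largest differences were -1.45 on the log2 scale for KO against WT under SFD and 1.75 for the interaction (edgeR adjusted p = 1 for each), both with an unadjusted p under 0.05.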
